A study of Mus musculus with 2 samples.

Results

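Endothelial cells, which line blood and lymph vessels, were examined in 2 lung sections from mouse models of small cell lung cancer (SCLC) measured by Xenium In Situ. Xenium is an imaging method in which probes bound to RNA in a tissue slice are decoded and each transcript is assigned to a segmented cell. A cell was gated as endothelial when it held 20 or more gene transcripts, at least 5 summed transcripts of *Pecam1*, *Sox17*, *Gpihbp1*, *Clec14a* and *Calcrl*, at most 1 summed transcript of the neuroendocrine (NE) genes *Chga*, *Chgb*, *Scg5*, *Snap25* and *Celf3*, and no transcript of *Cd3d* or *Cd3e*. The gate took 86127 of the 497663 segmented cells, 54146 of 154818 in the RPR2 section and 31981 of 342845 in the CRPR2 section.

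Both models were made on floxed alleles of *Rb1*, *Trp53* and *Rbl2*, which were deleted by adenoviral Cre instilled into the trachea at 10 weeks of age. The RPR2 section came from such a triple knockout (KO) with wild-type *Cracd*, and the CRPR2 section from the same alleles with a *Cracd* KO that the study describes as germline. *Cracd* encodes an inhibitor of actin capping proteins. Lungs were taken 6 months after Cre. An adenovirus with the CMV promoter, which is active in many cell types, served for the single-cell sequencing of these models, and the virus promoter for these sections was not given in the sources used here. The labels also name Ad-*Cracd*-Cre particles, and the sources used here do not settle whether *Cracd* was lost in the endothelial cells of the CRPR2 section. Mice of both sexes were used and the labels tie no sex to a section. A single block held tissue of both genotypes on 1 slide. *Cracd* and *Rbl2* were not measured by the panel. Levels are in CPM, the summed transcripts of a gene scaled to a fixed total of gene transcripts in the same cells. Endothelial *Rb1* had 3838 and 3856 CPM in the RPR2 and CRPR2 sections, and *Trp53* had 1801 and 2444 CPM. Probe sets differ between genes, so levels are compared for 1 gene at a time. Where the probes of *Rb1* and *Trp53* lie relative to the floxed exons was not given, so these levels do not check a deletion.

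Blood vessels of the lung hold capillary cells of different kinds, the aerocytes that face the airspace and the general capillary cells that can divide, besides the cells of arteries, veins and lymphatic vessels. Capillary cells use VEGF receptors, TIE receptors and BMP signaling to keep their identity, and they carry fatty acid transporters and caveolae in their thin walls. In adult lung most of these cells are quiescent, and tumors can draw on them for new vessels.

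From each genotype 1 section was analysed here. The study states that its Xenium experiment was repeated on distinct tumors, and no repeat was analysed here. No test was therefore run, a section stands for 1 place in the lung, and genotype, animal and block position cannot be told apart. Intervals in parentheses are exact at 95% and hold counting error alone. All section ratios below are on the log2 scale, with CRPR2 divided by RPR2. The sections shared 8 cell identifiers, of which 0 had identical counts and the closest pair had at most 50% of its transcripts in common, and identifiers were treated as belonging to different cells.

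Endothelial cells were a smaller share of the CRPR2 section. They made up 35.4% (35.2 to 35.6) of the RPR2 cells with 20 or more transcripts and 9.39% (9.29 to 9.49) of those of CRPR2, a log2 ratio of -1.92 (-1.94 to -1.90). Among cells with at most 1 transcript of the 5 NE genes, the shares were 39.7% (39.4 to 39.9) and 23.2% (23.0 to 23.5), a log2 ratio of -0.77. This limit leaves out the NE tumor cells defined next, but tumor cells without these transcripts can pass it. NE tumor cells, defined by 5 or more transcripts of the 5 NE genes and at most 1 of the gate genes, were 12175 in the RPR2 section and 134749 in the CRPR2 section, and the part of tumor amount and of the place of the section in these ratios was not tested. The gated cells held a median of 112 gene transcripts in RPR2 and 120 in CRPR2, from a median of 50 and 55 of the 479 panel genes, and the sums behind each level were 6338981 and 4109841 transcripts. In these cells negative control probes had a mean of 2.29 and 1.75 CPM in the RPR2 and CRPR2 sections, and the highest such probe read 13.9 and 6.81 CPM.

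All gate genes but *Sox17* were found in most gated cells, and the rule asks only for their sum. *Calcrl*, a receptor for adrenomedullin, was found in 99.4% of gated RPR2 cells and 98.1% of gated CRPR2 cells. *Pecam1*, the adhesion protein CD31 of endothelial junctions, was found in 88.6% and 90%, *Clec14a* in 80.3% and 72.9%, and *Gpihbp1*, which holds lipoprotein lipase on capillary walls, in 66.1% and 62.9%. *Sox17*, a transcription factor of arterial and embryonic endothelium, was found in 25.2% and 29.0%. Of the gated cells, 38.7% in RPR2 and 35.6% in CRPR2 held 4 of the gate genes and 17.4% and 16.6% held all 5, while 0.995% and 1.14% entered on 1 gate gene alone.

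*Tmem100*, a BMP target of lung endothelium that the gate did not use, was found in 92.6% of gated RPR2 cells and 82.0% of gated CRPR2 cells, against 0.764% and 1.08% of NE tumor cells. The edge of the gate was gradual. In RPR2, the 5223 cells with a gate sum of 5 had 20044 CPM of *Tmem100* and the 5990 cells with a sum of 4, just outside, had 17328 CPM. In CRPR2, the 3676 cells just inside had 14746 CPM and the 4565 just outside had 11440 CPM. On the NE side, cells with a single NE gate transcript were inside the gate (823 in RPR2 and 2175 in CRPR2) and cells with 2 were outside (32 and 577). *Tmem100* stood at 38115 CPM inside and 24086 CPM outside in RPR2, and at 22012 and 12502 CPM in CRPR2.

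Other endothelial genes that the gate did not use were at high levels in both sections. *Cav1* and *Cavin2*, which build caveolae, had 42366 and 23921 CPM in RPR2 and 33945 and 19551 CPM in CRPR2. *Aqp1*, a water channel, had 33694 and 35076 CPM, and *Eng*, a co-receptor for BMP9, had 25419 and 22542 CPM. *Tie1*, an angiopoietin co-receptor, had 16207 and 15702 CPM in endothelial cells against 61.7 and 121 CPM in NE tumor cells. The label of the cells was thus borne out, beside NE tumor cells, by markers outside the gate. An exception among the listed markers was *Vwf*, the clotting factor of larger vessels, which had 10402 and 15873 CPM in endothelial cells and 18469 and 22892 CPM in NE tumor cells, so its level does not tell the classes apart here. The gated cells also held transcripts of lung epithelium. The 4 measured genes of alveolar AT2 cells summed to 36206 and 48723 CPM in them, so the gated cells are not free of other types.

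**Figure D1:**
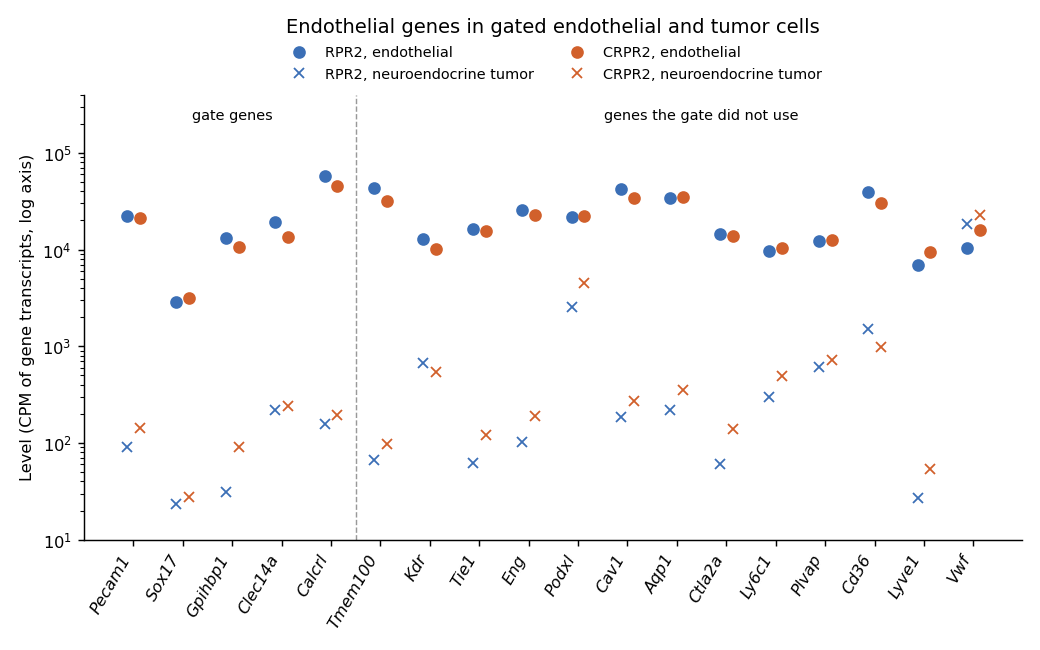
Levels of endothelial genes in CPM of gene transcripts (log axis) in gated endothelial cells (circles) and NE tumor cells (crosses) of the RPR2 and CRPR2 sections, 1 point per section. *Tmem100* stood at 43412 and 31381 CPM in endothelial cells against 66.4 and 97.0 CPM in tumor cells, and *Vwf* was the plotted gene with the higher level in tumor cells in both sections.

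Among the 12 genes with the highest ratio of CRPR2 over RPR2 in endothelial cells were 4 cell cycle genes, *Mki67*, *Top2a*, *Cenpf* and *Ube2c*, whose promoters are shown because such genes are known to share control elements. In dividing cells the late cell cycle genes are switched by the DREAM and B-MYB complexes through a CHR element, with nearby CCAAT boxes bound by NF-Y. The sequences come from RefSeq (build GRCm38.p6), run 5' to 3' on the strand of the gene from 250 bases before to 30 bases after the annotated start, and capitals mark matches to CHR (TTTGAA or TTCGAA) or to CCAAT on either strand (TTCAAA and ATTGG on the reverse). A reverse TTCGAA reads the same, and matches may overlap.
*Mki67* (chr7:135716350-135716629, minus strand): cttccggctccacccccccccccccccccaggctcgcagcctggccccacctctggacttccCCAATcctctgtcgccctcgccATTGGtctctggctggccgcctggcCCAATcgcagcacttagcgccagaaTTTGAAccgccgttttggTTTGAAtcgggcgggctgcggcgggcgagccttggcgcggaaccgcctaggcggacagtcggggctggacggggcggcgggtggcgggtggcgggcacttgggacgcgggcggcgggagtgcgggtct
*Top2a* (chr11:99024160-99024439, minus strand): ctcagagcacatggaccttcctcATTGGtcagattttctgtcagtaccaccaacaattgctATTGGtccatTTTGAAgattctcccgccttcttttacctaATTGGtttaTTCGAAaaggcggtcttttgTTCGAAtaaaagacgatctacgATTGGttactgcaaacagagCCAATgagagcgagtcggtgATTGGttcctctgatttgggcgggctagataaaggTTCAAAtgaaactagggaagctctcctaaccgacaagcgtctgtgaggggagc
*Cenpf* (chr1:189688057-189688336, minus strand): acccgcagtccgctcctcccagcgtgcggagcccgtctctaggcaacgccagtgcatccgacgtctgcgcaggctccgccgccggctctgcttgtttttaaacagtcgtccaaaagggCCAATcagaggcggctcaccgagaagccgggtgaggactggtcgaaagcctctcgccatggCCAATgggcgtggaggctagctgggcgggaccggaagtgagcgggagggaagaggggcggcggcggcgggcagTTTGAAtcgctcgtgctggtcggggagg
*Ube2c* (chr2:164769679-164769958, plus strand): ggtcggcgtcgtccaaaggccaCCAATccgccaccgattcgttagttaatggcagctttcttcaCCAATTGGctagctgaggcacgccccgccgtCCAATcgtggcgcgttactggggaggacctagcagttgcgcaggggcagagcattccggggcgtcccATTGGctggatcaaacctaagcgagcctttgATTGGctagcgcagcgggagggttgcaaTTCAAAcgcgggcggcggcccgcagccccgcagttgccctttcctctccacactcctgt

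The *Mki67* promoter held 2 CHR and 3 CCAAT matches, that of *Top2a* 4 and 6, that of *Cenpf* 1 and 2, and that of *Ube2c* 1 and 6. Of 32851 promoters of the same length, 18.4% held a CHR match, 36.1% a CCAAT match and 6.92% both. A promoter was found for 7 of the 8 cycling genes, of which 4 held CHR and 6 held CCAAT. A match of letters is a description of the sequence and not of binding in these cells.

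Of the 479 genes, 294 reached 100 CPM in the endothelial cells of a section. Among them 72 (24.5%) were at least 2-fold higher in CRPR2 and 10 (3.40%) at least 2-fold lower. The median log2 ratio of the 294 genes was 0.33 (quartiles, -0.10 and 0.94), with 207 genes above 0 and 87 below. CPM are shares of 1 total, so the ratios of different genes are not independent. Of the 72 higher genes, 32 reached 100 CPM in CRPR2 alone, and of the 10 lower genes 3 did so in RPR2 alone, which fixes their direction. In all other cells 18.5% of 362 genes were at least 2-fold higher and 32.6% lower, in NE tumor cells 5.36% and 8.21% of 280, and in fibroblasts 20.2% and 4.22% of 332. All other cells are a pool of types, with 12175 NE tumor cells of 98769 in RPR2 and 134749 of 308628 in CRPR2. Ratios in this pool, here and below, mix level with composition, and these were not separated. Relative to the median gene of endothelial cells, 59 genes were at least 2-fold higher and 18 at least 2-fold lower. Ratios below are given on the CPM scale, and a gene with a log2 ratio between 0 and 0.33 lies below the median gene.

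Most genes on the higher side were more abundant outside the endothelium. Of the 72 genes, 68 (94.4%) had a higher level in all other cells than in endothelial cells of the RPR2 section, beside 74.5% of all 294 genes, and 50 (69.4%) in the CRPR2 section, beside 53.4%. Of the 72, 53 (73.6%) were also higher in the other cells of CRPR2 than in those of RPR2, beside 100 of all 294, and 19 were lower there. Only *Ackr3* and *Rbp7* of the 72 were at least 2-fold above the other cells in both sections. *Ackr3*, a scavenging receptor for the chemokine CXCL12, had 1780 CPM in RPR2 and 4739 CPM in CRPR2 endothelial cells, a log2 ratio of 1.41 (1.38 to 1.45) beside 0.17 in all other cells. *Rbp7*, a retinol-binding protein, had 95.4 and 269 CPM, a log2 ratio of 1.49 (1.35 to 1.64). It reached 100 CPM in CRPR2 alone, which fixes its direction.

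A different picture came from the 35 genes that were at least 2-fold above the other cells in both sections. Their median log2 ratio was -0.23, against 0.33 over all 294 genes, and 32 of the 35 lay below that median. On the CPM scale 13 of the 35 were above 0 and 22 below. The set was drawn after its values had been seen and includes the 5 gate genes. The endothelial genes listed for cell identity, leaving out the gate genes, were 22, of which 3 were at least 2-fold higher and 1 at least 2-fold lower, beside 24.5% and 3.40% of all 294 genes, with a median of 0.03 in endothelial cells and -1.08 in all other cells. Scaled by the median gene, the 0.03 became -0.30.

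Receptors and surface proteins of capillaries had modest ratios. *Kdr*, the main VEGF receptor, had 12821 CPM in RPR2 and 10139 CPM in CRPR2, a log2 ratio of -0.34 (-0.36 to -0.32). *Clec14a*, a lectin of growing vessels, had 19150 and 13314 CPM and a ratio of -0.52 (-0.54 to -0.51), and *Calcrl* 58086 and 45295 CPM and a ratio of -0.36. *Tie1*, *Pecam1*, *Ctla2a* and *Eng* had ratios from -0.05 to -0.17. *Podxl*, a sialomucin, *Plvap*, the protein of fenestral diaphragms, and *Aqp1* had ratios from 0.02 to 0.06, which is below the median gene. Gate genes are among these, and their levels were part of how cells were chosen.

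Within the BMP and SMAD pathway the inhibitor *Smad6* had the lowest ratio. *Smad6*, the inhibitory SMAD induced by BMP and by flow, had 13673 CPM in RPR2 and 8515 CPM in CRPR2, a log2 ratio of -0.68 (-0.70 to -0.67). In all other cells its ratio was lower still, -1.15. In fibroblasts, gated by 3 or more transcripts of *Itga8*, *Gli1*, *Nox4* and *Snai2*, its ratio was 0.03. *Tmem100*, which BMP9 induces, had a ratio of -0.47 (-0.48 to -0.46), and the co-inhibitor *Smad7* had 6957 and 5918 CPM and a ratio of -0.23. Of 7 measured genes of the pathway, 2 were above 0 and 5 below, none by 2-fold, with a median of -0.17 in endothelial cells and -0.17 in all other cells. Within cells of 50 to 79, 80 to 119, 120 to 159 and 160 to 219 transcripts, the *Smad6* ratio lay between -0.55 and -0.66.

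The list of aerocyte genes had 2 measured members, *Cyp4b1* and *Fibin*, of which 1 was at least 2-fold lower beside 3.40% of all 294 genes. *Cyp4b1*, a fatty acid hydroxylase that airway club cells also make, had 17332 CPM in RPR2 and 8643 CPM in CRPR2, a log2 ratio of -1.0 (-1.02 to -0.99). With a gate sum of 8 or more the ratio was -0.98 and without cells that held an NE list transcript -0.89, so its place past 2-fold is not settled. *Fibin* had 2257 and 1204 CPM and a ratio of -0.91 (-0.95 to -0.86), close to its ratio of -0.86 in fibroblasts. Outside that list, *Prx*, a scaffold protein of Schwann cells and lung capillaries, had 13451 and 8004 CPM and a ratio of -0.75 (-0.77 to -0.73). *Hpgd*, which degrades prostaglandins, had 11051 and 7142 CPM and a ratio of -0.63. In all other cells, a pool whose composition differs between the sections, the ratios of these 4 genes were lower still, from -1.54 to -2.35. *Lipg*, an endothelial lipase, had 1459 and 654 CPM and a log2 ratio of -1.16 (-1.22 to -1.10) beside -2.41 in all other cells.

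*Ppbp*, a chemokine of platelets, had 178 CPM in RPR2 and 87.1 CPM in CRPR2, a log2 ratio of -1.03 (-1.21 to -0.86), and was the 1 gene of the 10 at least 2-fold above the other cells in both sections. Its ratio was -0.90 with a gate sum of 8 or more and -0.75 without cells that held a macrophage list transcript, so this call too is not settled. *Igfbp6*, an IGF-binding protein, had 2269 and 875 CPM in endothelial cells and 12567 and 6054 CPM in fibroblasts. *Itga8*, an integrin of lung mesenchyme, had 6830 and 3355 CPM, a log2 ratio of -1.03 that was -0.92 with a gate sum of 8 or more. The mesothelial gene *Upk3b* had 166 and 55.2 CPM, a ratio of -1.59. The B cell gene *Ms4a1*, which should be absent from endothelium, had 260 and 108 CPM.

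**Figure D2:**
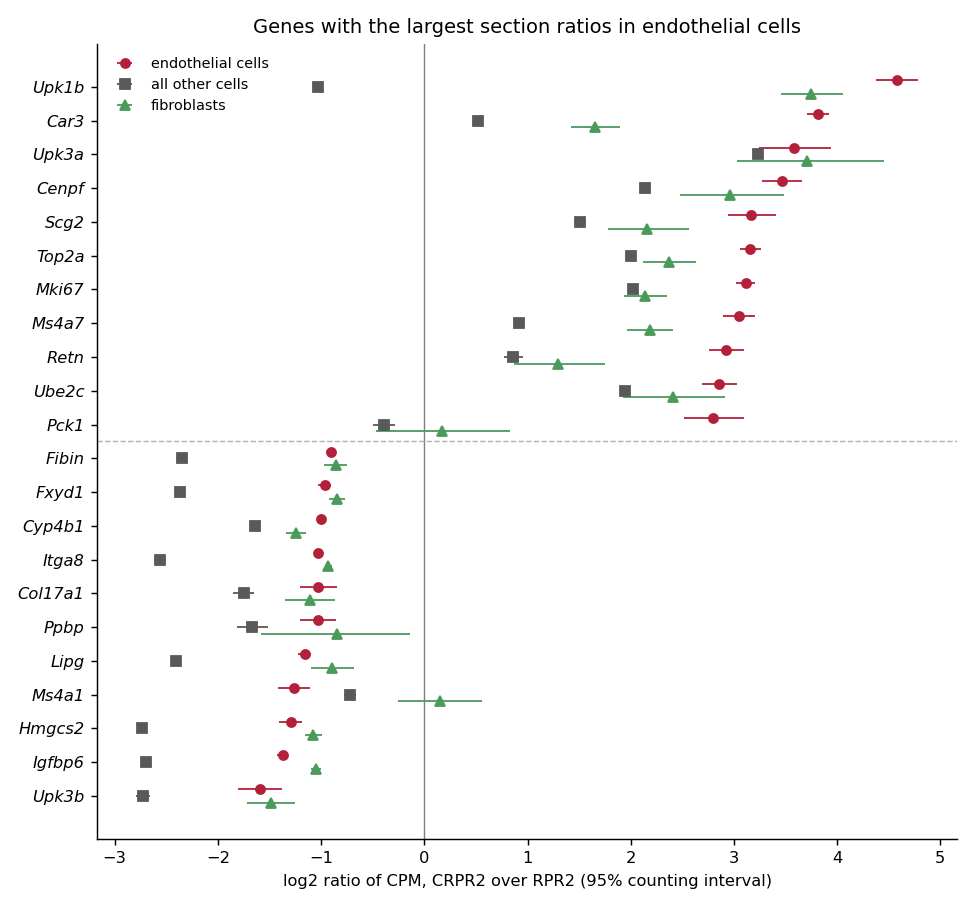
Log2 ratios of CPM, CRPR2 over RPR2, for 22 of the 24 genes with the highest or lowest ratio in endothelial cells (circles), beside the ratio in all other cells (squares) and in fibroblasts (triangles), with 95% counting intervals. *Upk1b* stood at 4.58 in endothelial cells and -1.03 in all other cells, and *Lipg* at -1.16 and -2.41.

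Genes of the cell cycle were higher in CRPR2 endothelial cells. *Mki67*, which encodes the proliferation antigen Ki-67, had 182 CPM in RPR2 and 1578 CPM in CRPR2, a log2 ratio of 3.11 (3.02 to 3.21). *Top2a*, the topoisomerase of replicating and mitotic cells, had 143 and 1275 CPM and a ratio of 3.16 (3.06 to 3.26). *Cenpf*, a kinetochore protein, had 41 and 452 CPM and a ratio of 3.46 (3.27 to 3.66), and *Ube2c*, the ubiquitin-conjugating enzyme of mitotic exit, had 53.5 and 387 CPM and a ratio of 2.86 (2.69 to 3.03). Of the 7 cycling genes with a promoter found, these 4 held CHR matches, and a link to the ratios was not tested.

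The other 4 cycling genes had smaller ratios. *Ezh2*, a histone methyltransferase, had 798 and 1818 CPM and a log2 ratio of 1.19, *Pclaf*, a PCNA-associated factor, 1087 and 1914 CPM and 0.82, and *E2f1*, an S phase transcription factor, 445 and 741 CPM and 0.74. *Stmn1*, a microtubule regulator, had 6117 and 8049 CPM and a ratio of 0.40 (0.37 to 0.42). *Cenpf* and *Ube2c* reached 100 CPM in CRPR2 alone. All 8 stayed above 0 relative to the median gene, *Stmn1* at 0.06. Of the 8, 5 were at least 2-fold higher, beside 24.5% of all 294 genes, and their median log2 ratio was 2.02 in endothelial cells and 1.81 in all other cells. Their summed level was 8866 CPM in RPR2 and 16214 CPM in CRPR2, a log2 ratio of 0.87 (0.85 to 0.89).

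To count cycling cells, each cell was thinned to 50 transcripts, and a cell was counted with 1 or more transcripts of *Mki67* or *Top2a*. In RPR2, 583 of 51707 endothelial cells were counted, 1.13% (1.04 to 1.22). In CRPR2, 2552 of 30984 were counted, 8.24% (7.93 to 8.55), a log2 ratio of 2.87 (2.74 to 3.00). The cells with fewer than 50 transcripts, 2439 in RPR2 and 997 in CRPR2, were left out, and without thinning the shares were 2.16% and 14.4%. The size of the ratio depended on the genes counted. With *Pclaf* counted as well the shares were 6.41% and 15.6%, a log2 ratio of 1.28 (1.22 to 1.35), and with 2 or more transcripts asked for the ratio was 3.48.

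Ciliated cells, gated by 5 or more transcripts of *Foxj1*, *Ccdc153* and *Tmem212*, are known not to divide, and their share was set beside this count. Of these, 1.05% (0.867 to 1.25) were counted in the RPR2 section and 3.65% (3.15 to 4.22) in CRPR2, at medians of 116 and 130 transcripts. The intervals of RPR2 endothelial and ciliated cells overlapped, and the CRPR2 endothelial share lay above that of ciliated cells by more than the counting intervals. The part of transcripts from neighboring cells in either share was not tested. Fibroblasts had 1.70% (1.40 to 2.04) in RPR2, above the endothelial cells of that section, and 8.57% (7.88 to 9.30) in CRPR2, where the intervals overlapped, and NE tumor cells had 42.3% and 50%. The ciliated share itself was higher in CRPR2, beside a section in which 134749 cells against 12175 in RPR2 were NE tumor cells.

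The share of counted cells went down with the strength of the endothelial signal in both sections. In RPR2 it was 2.03% (1.64 to 2.48) in cells with a gate sum of 5 and 0.488% (0.313 to 0.725) at a sum of 25 or more. In CRPR2 it was 10.4% (9.35 to 11.5) at a sum of 5 and 5.70% (4.64 to 6.92) at 25 or more. In CRPR2 the share stayed above that of ciliated cells in each of the 6 bins of gate sum. In RPR2 the bins from 11 upward were below the ciliated share, but only that of 25 or more by more than the counting intervals.

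**Figure D3:**
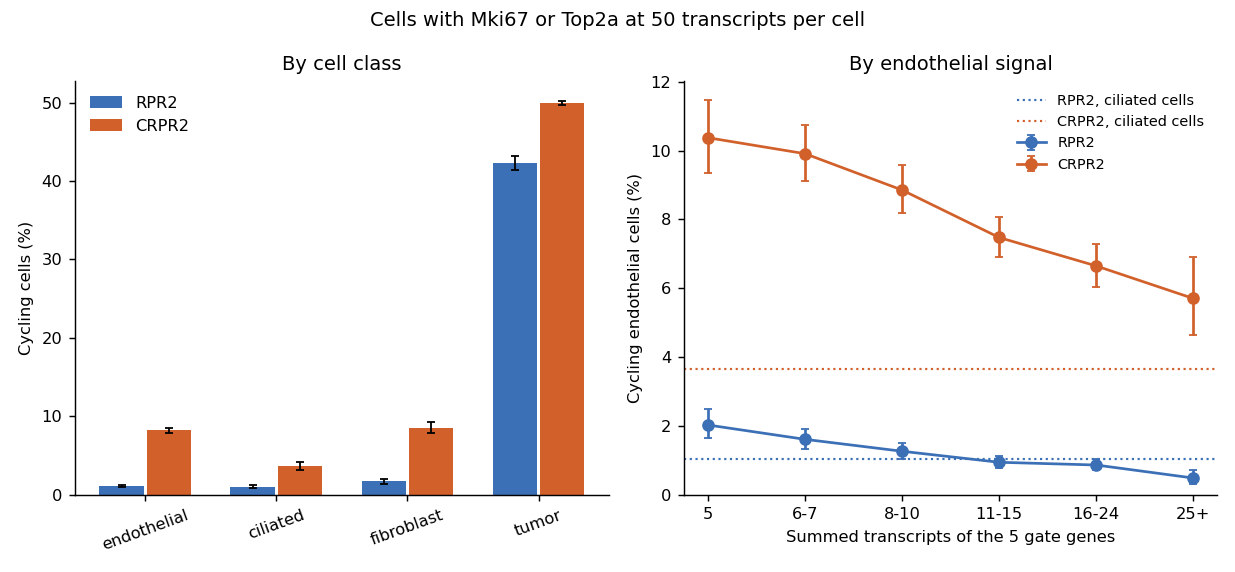
Percent of cells with a *Mki67* or *Top2a* transcript after thinning to 50 transcripts, by cell class (left, bars) and, in endothelial cells, by the summed transcripts of the 5 gate genes (right, points), with 95% counting intervals and with the ciliated share as dotted lines. CRPR2 endothelial cells ran from 10.4% at a sum of 5 to 5.70% at 25 or more, above the 3.65% of ciliated cells, and RPR2 endothelial cells from 2.03% to 0.488%.

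The share also moved with transcripts of other cell types inside the gated cells. In CRPR2 it was 6.5% in endothelial cells with no transcript of the NE list and 24.5% in those with 4 or more, and in RPR2 1.08% and 15.4% (39 cells). It was 7.43% in CRPR2 cells with no transcript of the macrophage list and 14.2% in those with 4 or more, and 0.920% and 8.43% in RPR2. Among endothelial cells with no transcript of the NE list, of the macrophage list or of the leukocyte gene *Ptprc*, 5.55% (5.20 to 5.93) of 15379 CRPR2 cells and 0.847% (0.759 to 0.942) of 39551 RPR2 cells were counted. The CRPR2 share without these transcripts was thus lower than the 8.24% of all gated cells.

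Transcripts of several cell cycle genes met in the same cells. Among CRPR2 endothelial cells with *Mki67*, 42.6% (40.9 to 44.4) also held *Top2a*, 23.0% *Cenpf* and 20.3% *Ube2c*, against 4.97%, 1.78% and 1.49% of those without *Mki67*. In RPR2 the shares were 22%, 10.6% and 8.53% with *Mki67*, against 0.827%, 0.215% and 0.401% without. In NE tumor cells, 60% of RPR2 and 58.5% of CRPR2 cells with *Mki67* held *Top2a*. These shares were not thinned, and cells with *Mki67* can be deeper than those without.

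Cells with 2 or more transcripts of *Mki67* and *Top2a* were set beside those with none, 249 against 52977 in RPR2 and 1859 against 27384 in CRPR2. All 13 measured genes of the general endothelial list outside the gate were lower in the counted cells of both sections. In CRPR2 their median log2 ratio was -0.42, from -1.07 for *Vwf* to -0.14 for *Tie1*. In RPR2 it was -0.69, from -1.0 for *Tmem100* to -0.21 for *Lyve1*. The order of the sections differed by gene, with -0.15 in CRPR2 and -0.75 in RPR2 for *Kdr* and -0.56 and -1.0 for *Tmem100*, but -1.07 and -0.23 for *Vwf* and -0.63 and -0.21 for *Lyve1*. The macrophage gene *Cd68* was 1.25 above in CRPR2 and 3.15 above in RPR2, and the leukocyte gene *Ptprc* 1.15 and 2.52. Further cell cycle genes outside the rule were also higher in the counted cells, *Stmn1* by 1.79 and 1.67 and *E2f1* by 1.97 and 2.94. The part of transcripts taken up from neighboring cells in these values was not tested.

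NE transcripts were also on the higher side. *Scg2*, a secretogranin of dense-core granules, had 29.0 CPM in RPR2 and 261 CPM in CRPR2 endothelial cells, a log2 ratio of 3.17 (2.94 to 3.40), against 16948 and 13608 CPM in NE tumor cells. Of the 13 measured genes of the NE list, 12 had a ratio above 0, beside 292 of all 479 genes, and 1, *Neurod1*, a ratio of -0.19 (19.7 and 17.3 CPM). The 9 that reached 100 CPM were all at least 2-fold higher, beside 24.5% of all 294 genes. Of these 9, 7 reached 100 CPM in CRPR2 alone, so a higher value there was fixed by that floor. The list, 5 of whose genes were capped by the gate, summed to 1018 CPM in RPR2 and 4493 CPM in CRPR2, against 209826 and 202018 CPM in NE tumor cells. Its most abundant gene in RPR2 was *Cplx2*, a complexin of synaptic vesicles, with 533 CPM in RPR2 and 1447 CPM in CRPR2.

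Set beside the level in NE tumor cells of the same section, endothelial *Scg2* was 0.171% in RPR2 and 1.92% in CRPR2, and *Cplx2* was 1.89% and 4.58%. *Neurod1*, with 21.5 and 32.5 CPM in NE tumor cells, was at 91.9% and 53.2%. The cell cycle genes stood above *Scg2* and *Cplx2* on this scale in CRPR2. *Mki67* was 1.93% and 13.7% of the tumor level, *Top2a* 2.13% and 16%, *Cenpf* 1.16% and 9.96%, and *Ube2c* 2.25% and 14.6%. The gate removes cells with transcripts of the 5 NE genes, and NE tumor cells were chosen by 5 or more of them, so the percentages of NE genes are lowered by the choice of cells. The part of tumor transcripts and of other dividing cells in these values was not tested.

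**Figure D4:**
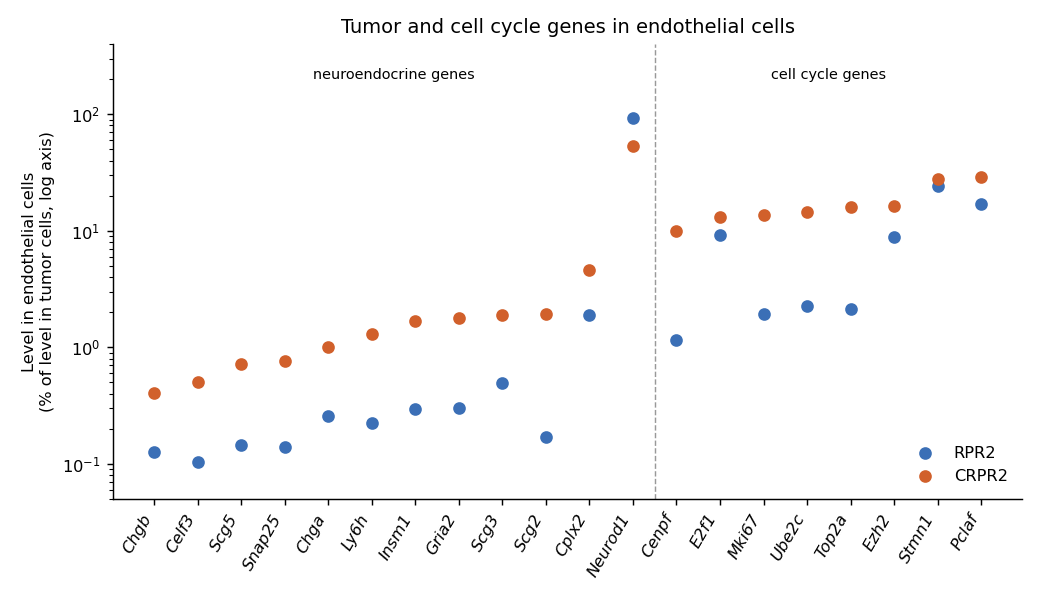
Level in endothelial cells as a percent of the level in NE tumor cells of the same section (log axis), for NE genes (left; the 5 gate genes among them were capped by the gate) and cell cycle genes (right), 1 point per section. In CRPR2 the plotted NE genes lay at 4.58% or less except *Neurod1* at 53.2%, and the cell cycle genes at 9.96% or more.

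The macrophage list gave values of both signs. Of its 8 measured genes 6 reached 100 CPM, of which 3 were at least 2-fold higher, beside 24.5% of all 294 genes, and 1, *Marco*, had a ratio of -0.36 (113 and 87.8 CPM). Of the 6, 1 reached 100 CPM in CRPR2 alone and *Marco* in RPR2 alone, which fixes their direction. The list summed to 1745 CPM in RPR2 and 4792 CPM in CRPR2, a log2 ratio of 1.46. The median ratio of its genes was 1.07 in endothelial cells and -0.45 in all other cells. *Cd68*, a lysosomal glycoprotein and its most abundant gene, had 539 and 2420 CPM, a log2 ratio of 2.17 (2.11 to 2.22). *Ms4a7*, a membrane protein of macrophages outside this list, had 62.3 and 514 CPM, a ratio of 3.05. It reached 100 CPM in CRPR2 alone. The defining T cell genes *Cd3d* and *Cd3e* were at 0 by the gate, and *Cd8a* had 27.0 and 28.7 CPM. The 4 measured genes of alveolar AT2 cells summed to 36206 and 48723 CPM in the gated cells, against 49830.5 and 34229.9 CPM in all other cells. The part of these cell types in the ratios above was not tested.

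Hypoxia and angiogenesis genes gave mixed values. *Hif1a*, the oxygen-sensing transcription factor, had 1826 CPM in RPR2 and 3869 CPM in CRPR2 endothelial cells, a log2 ratio of 1.08 (1.05 to 1.12), beside 0.97 in all other cells and 0.27 in fibroblasts. The *Hif1a* ratio was smaller in deeper cells, from 1.30 at 50 to 79 transcripts to 0.94 at 160 to 219. Its place past 2-fold is thus not settled. *Vegfa*, the ligand of *Kdr*, had 17817 and 15070 CPM and a ratio of -0.24. It is also on the list of alveolar AT1 cell genes, where it was the highest in gated cells of both sections. The part of transcripts from such cells in its level was not tested. *Angpt2*, the angiopoietin of activated tip cells, had 949 and 1022 CPM, and *Plvap* 12156 and 12481 CPM, with ratios of 0.11 and 0.04 that lie below the median gene. *Pdgfb*, by which endothelial cells recruit pericytes, had 4270 and 4840 CPM, a ratio of 0.18. *Thbs1*, an angiogenesis inhibitor, had 2009 and 3417 CPM and a ratio of 0.77.

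The gated cells were not of 1 kind, and markers of vessel type split them in both sections. The marker cutoffs below were set after their values had been seen, shares are given before and after thinning to 50 transcripts, and ratios compare cells with the marker with the other gated cells of the same section.

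Cells with *Fibin*, known from aerocytes, were 16.5% of gated cells in RPR2 and 9.44% in CRPR2, and 9.09% (8.85 to 9.34) and 4.93% (4.70 to 5.18) after thinning. The thinned share was 0.0929% and 0.109% in NE tumor cells but 10.3% and 5.34% in fibroblasts, so *Fibin* alone does not mark endothelium. Cells with *Fibin* had more *Prx* (22633 against 11358 CPM in RPR2, 19303 against 6665 CPM in CRPR2), more *Tbx3*, a T-box factor, and more *Kdr*, with log2 ratios of 1.10 and 0.93. They had less *Plvap* (-1.03 in both sections), *Sox17* and *Hey1*. A high level of *Kdr* with low *Plvap* is the known pattern of aerocytes. Genes of fibroblasts were higher in them as well, with log2 ratios of 0.85 and 0.91 for *Itga8*, 0.77 and 0.71 for *Nox4*, an NADPH oxidase, and 0.62 and 0.59 for *Mmp2*, a matrix protease.

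Within the cells with *Fibin*, several section ratios lay nearer to 0 than in the cells without it. The log2 ratio of CRPR2 over RPR2 was -0.23 inside and -0.77 outside for *Prx*, -0.48 and -1.05 for *Cyp4b1*, and -0.22 and -0.51 for *Tmem100*. *Smad6* had -0.44 inside and -0.72 outside. *Kdr* went the other way, with -0.37 inside and -0.19 outside, and *Hpgd* had nearly the same ratio, -0.60 and -0.64.

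Cells with 2 or more transcripts of *Hey1*, a NOTCH target of arterial endothelium, were 14.5% in RPR2 and 12.7% in CRPR2, and 4.36% and 3.65% after thinning, against 0.279% and 0.247% of NE tumor cells. They had little *Mmrn1* (log2 ratios of -1.95 and -2.08) and little *Fibin* (-1.47 and -1.62). *Plvap* (0.87 and 0.53), *Gpihbp1* of capillary walls (0.59 and 0.55) and *Sox17* (0.58 and 0.75) were higher in them, and *Prx* was lower (-0.49 and -0.58). The group is thus not read as arterial cells alone. The arterial list summed to 8375 CPM in RPR2 and 8576 CPM in CRPR2 over all gated cells. Within it *Hey1* had a ratio of -0.29, *Hey2*, a related factor, 0.09, and *Fbln5*, which builds elastic fibers, 0.49 (0.46 to 0.52).

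Cells with 2 or more transcripts of *Mmrn1*, the multimerin of lymphatic vessels, were 615 in RPR2 and 793 in CRPR2, 1.14% (1.05 to 1.23) and 2.48% (2.31 to 2.66), and 0.814% and 1.85% after thinning. Of 11840 thinned NE tumor cells in RPR2, 0 were counted, which allows a share of up to 0.0253%, and 0.00379% were counted in CRPR2, while fibroblasts had 0.389% and 0.573%. *Prox1*, the master regulator of lymphatic fate, had 10003 CPM in RPR2 cells with *Mmrn1* against 47.8 CPM in the others, and 13264 against 173 CPM in CRPR2. *Tbx1*, a T-box factor of lymphatic development, had log2 ratios of 5.52 and 4.88, *Nts*, neurotensin, 7.49 and 6.75, and *Lyve1*, the hyaluronan receptor of lymphatic vessels, 1.95 and 1.75. *Tmem100*, *Prx*, *Smad6* and *Tbx3* were at least 4-fold lower in these cells in both sections. Over all gated cells *Mmrn1* had 906 CPM in RPR2 and 1983 CPM in CRPR2, a log2 ratio of 1.13 (1.08 to 1.18) beside -0.94 in all other cells. *Prox1* itself had 183 and 572 CPM over all gated cells, but NE tumor cells had 9500 and 8653 CPM.

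Those with 2 or more transcripts of *Lyve1*, lymphatic cells included, were 17.4% and 25.4%, and 7.44% and 11.7% after thinning, against 0 of 11840 (up to 0.0253%) and 0.00908% of NE tumor cells, so they were far more common than the lymphatic cells above. They had more *Vwf* (log2 ratios of 1.86 and 1.65), *Bst1* (1.97 and 1.35) and *Prss23*, a serine protease (2.04 and 1.89), and less *Fibin* and *Lipg*. The muscle gene *Ttn* was higher in them too (1.79 and 1.39). Over all gated cells *Lyve1* had 6836 CPM in RPR2 and 9486 CPM in CRPR2, a ratio of 0.47 (0.45 to 0.49) beside 0.06 in fibroblasts. By 2 or more transcripts of *Vwf* 21.9% and 34.9% of cells were counted, but the thinned shares of 11.6% and 18.8% were below the 24.9% and 33.1% of NE tumor cells and are not read as a vessel type.

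*Bst1*, known from veins and from myeloid cells, had 762 and 2123 CPM over all gated cells, a log2 ratio of 1.48 (1.43 to 1.53). Cells with 2 or more of its transcripts were 1.88% and 6.12%, and 0.456% and 1.59% after thinning. They had more *Cd68* (3.30 and 2.39) and more *Mpeg1*, a perforin of macrophages (3.11 and 2.20), together with more *Vwf* (2.27 and 1.53). Without cells that held a transcript of the macrophage list, the ratio of *Bst1* was 1.5.

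**Figure D5:**
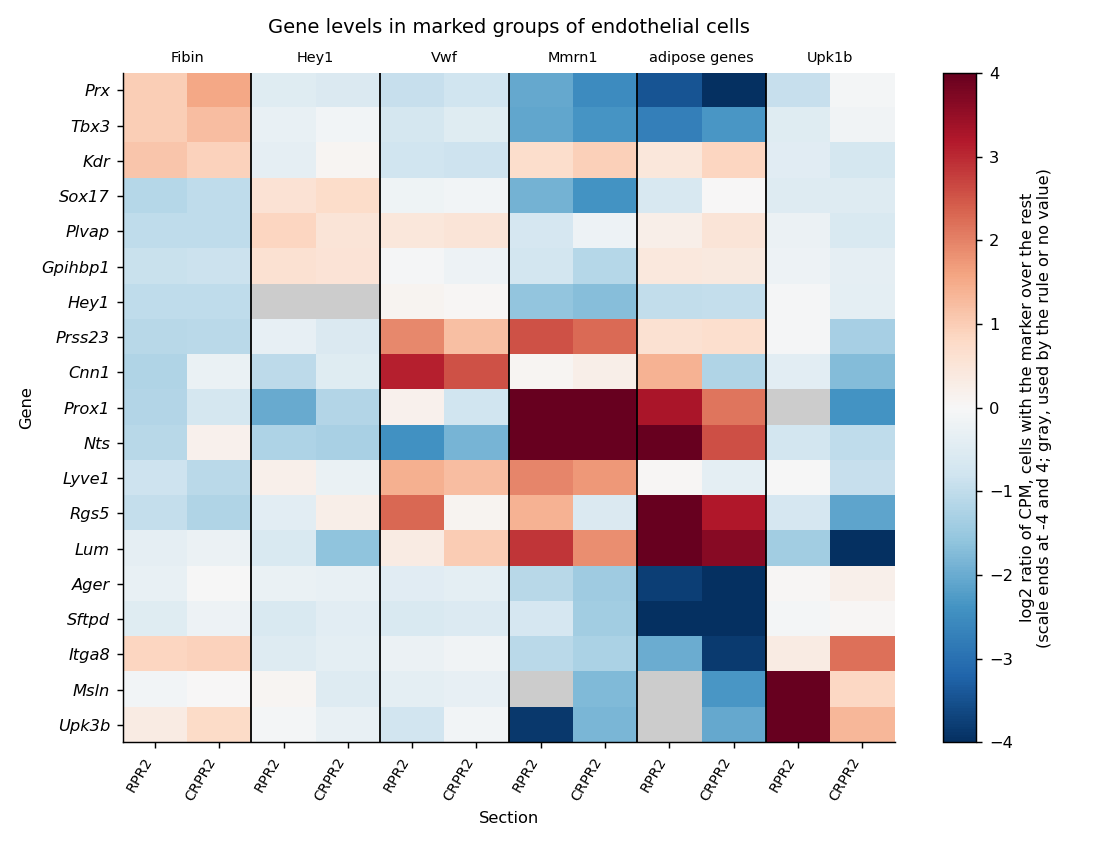
Heat map of log2 ratios of CPM in gated endothelial cells with a marker over the other gated cells of the same section, for 19 genes (rows) and 6 markers in each section (columns), with the color scale ending at -4 and 4. *Prox1* and *Nts* were high in cells with *Mmrn1* in both sections, *Prx* in cells with *Fibin*, and *Prx*, *Ager* and *Sftpd* low in cells with adipose genes.

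The gene with the highest ratio, *Upk1b*, a uroplakin of urothelium and mesothelium, had 32.5 CPM in RPR2 and 775 CPM in CRPR2 endothelial cells, a log2 ratio of 4.58 (4.37 to 4.79). It was found in 177 of the RPR2 cells and 2342 of the CRPR2 cells, 0.327% and 7.32%, and in 0.153% and 3.34% after thinning. In fibroblasts the thinned shares were 0.389% and 8.86%, and the level was 130 and 1745 CPM, so the gene was not particular to endothelium. Its company differed between the sections. In RPR2, cells with *Upk1b* had 11719 CPM of the mesothelial gene *Upk3b* against 124 CPM in the others, and more *Msln*, mesothelin (6.29). In CRPR2 the ratio of *Upk3b* was 1.33 and that of *Msln* 0.83, while *Itga8* and *Mamdc2*, a matrix protein, had more (2.22 and 1.70).

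Genes known from fat were among the highest ratios, and their grouping was made after those values had been seen, so the cell counts below restate it. *Retn* and *Pck1* reached 100 CPM in CRPR2 alone. *Car3*, a carbonic anhydrase abundant in fat and muscle, had 120 CPM in RPR2 and 1680 CPM in CRPR2, a log2 ratio of 3.81 (3.70 to 3.92), *Retn*, the adipokine resistin, 51.9 and 394 CPM and 2.93, and *Pck1*, an enzyme of glyceroneogenesis, 18.9 and 132 CPM and 2.80. The cells with 2 or more transcripts of *Car3*, *Retn*, *Pck1* and the glycerol channel *Aqp7* were 66 in RPR2 and 448 in CRPR2, 0.122% (0.0943 to 0.155) and 1.40% (1.27 to 1.54), and 0.0716% and 1.04% after thinning, against 0 of 11840 and 0.00303% of NE tumor cells and 0.203% and 0.573% of fibroblasts, a share above the endothelial one in RPR2. In mural cells, gated by 5 or more transcripts of *Rgs5* (49 and 314 cells), *Car3* had 6796 and 18308 CPM. The endothelial cells counted here had little of the lung genes *Ager* (log2 ratios of -3.76 and -4.68) and *Sftpd* (-4.16 and -5.88), and little *Prx* (-3.46 and -5.66). They had more *Rgs5*, a pericyte regulator of G protein signaling (4.65 and 3.20), and more of the matrix gene *Lum* (4.83 and 3.64). Muscle genes were as high in them, with 5.46 and 3.48 for *Pln*, phospholamban, and 5.09 and 3.21 for *Tnnc1*, a troponin, so these cells did not hold fat genes alone. Over all gated cells *Rgs5* had 341 and 2003 CPM, a ratio of 2.55 (2.48 to 2.62), which was 2.35 without cells that held an adipose transcript. The ratio of *Car3* was larger in deeper cells, from 1.26 in cells of 50 to 79 transcripts to 4.43 in cells of 160 to 219.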

How the data were processed

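The authors deposited, for each section, whole-number transcript counts per gene and segmented cell, with cells segmented by nuclear expansion and no normalization. Per the submitters' processing notes Seurat 4.4.0 was used. Of 541 features the 479 genes were used here, and the 20 negative control probes served as background. Cell positions were not used here.

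Counts were summed over the gated cells of a section and scaled to CPM of gene transcripts. Intervals at 95% were exact (Clopper-Pearson for shares, conditional binomial for ratios of counts). Cells were thinned to 50 transcripts without replacement with fixed seeds. No doublet caller was run. A count of 0 allows a share of up to 3 counts. The ratios, their intervals and the 2-fold call were tested on simulated counts. Thinning was checked on the mean of *Calcrl* in the gated RPR2 cells. The tools were Python 3.11.15 with pandas 2.3.3, numpy 2.4.6, matplotlib 3.10.9 and scipy 1.17.1.

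Genes were named by rule: the 12 with the largest ratio each way at 100 CPM or more, the 12 highest in level, the 12 highest over other cells, and all panel genes of the lists. Vessel markers, adipose and muscle groups and the 35 genes enriched in endothelium were added after their values had been seen. The cells and the lists were chosen with earlier results of these data known. Alternatives covered the gate, depth, thinning, scaling, the floor and cells with transcripts of other types. Some named genes are not reported here.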

Additional observations from a re-analysis of the deposited data

How the results depend on the processing

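Of 64 alternative values of the 6 summary results, 35 stayed within a set range, 26 moved and 3 turned sign. The cause was not tested. The range was the counting interval for shares and summed genes, and within 1.5 times the count for numbers of genes. For the median of endothelial genes it ran between the medians of the lower and upper counting bounds of its genes. The log2 ratio of the endothelial share was -1.83 with a gate sum of 3 or more, -2.01 with 8 or more and -1.99 with no NE gate transcript. The ratio of the cycling share was 3.01 with a gate sum of 8 or more, 2.74 without thinning, 2.72 when thinned to 100 transcripts, 3.48 when 2 or more transcripts were asked for, and 1.28 when *Pclaf* counted as well. The ratio of the summed cycling genes was 0.95 with a gate sum of 3, 0.84 with 8, 0.81 with no NE gate transcript, 0.85 where the endothelial sum had to exceed each other class list, 0.54 scaled by the median gene and 0.83 as a mean over cells. Genes at least 2-fold lower, 10 in the report, were 6 with a gate sum of 8, 18 scaled by the median gene and 17 with no floor, while those at least 2-fold higher ran from 53 to 106. The median of endothelial genes outside the gate, 0.030 in the report, was -0.018 with a gate sum of 3, -0.30 scaled by the median gene, 0.053 with the rule on other class lists and 0.049 as a mean over cells, so its sign is not settled. The exclusions that follow were chosen after seeing the data. Without cells that held an NE list transcript (68.7% of CRPR2 cells were left), the cycling ratio was 2.59, the summed genes 0.72, the median -0.032, and 55 of the 72 higher genes were still 2-fold higher. Without cells that held a macrophage list transcript these were 3.01, 0.82, 0.077 and 60 of 72, with 6 genes lower, and without adipose transcripts the summed genes gave 0.90. Of 129 single genes named, 107 kept their sign when scaled by the median gene. No paired analysis was possible because each group has 1 section. Depth limits genes under about 14 CPM in RPR2, the highest negative control probe.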

Other observations

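Gated cells with 2 or more transcripts of the striated muscle genes *Myoz2*, *Pln*, *Tnnc1* and *Hrc* were 625 in RPR2 and 601 in CRPR2, 1.15% (1.07 to 1.25) and 1.88% (1.73 to 2.03), and 0.756% and 1.14% after thinning to 50 transcripts, against 0.0169% and 0.0144% of NE tumor cells and 1.01% and 1.52% of fibroblasts, so they were not particular to the gated cells. The cutoff was set after the values had been seen. Cardiac muscle is known to sheathe the larger pulmonary veins of mice. These cells had 18675 CPM of *Ttn*, the sarcomere protein titin, in RPR2 against 144 CPM in the other gated cells, and 16440 against 120 CPM in CRPR2. *Trdn*, triadin of the sarcoplasmic reticulum, had log2 ratios of 7.54 and 7.24 over the other gated cells.

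The same cells carried vessel genes at a distinct level. *Vwf* had 45482 CPM in RPR2 cells with muscle transcripts against 9904 CPM in the others, and 48021 against 15179 CPM in CRPR2. *Lyve1* had 23141 against 6605 CPM and 29694 against 9050 CPM, and *Prss23* had log2 ratios of 2.5 and 2.09. Capillary genes were low, with -2.64 and -3.89 for *Prx* and -2.40 and -2.83 for *Tmem100*. *Mki67* was lower than in the other gated cells in both sections, by log2 ratios of -1.71 and -1.57.

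Cells with *Rsad2*, an antiviral gene induced by interferon, were 0.940% (0.860 to 1.02) of gated cells in RPR2 and 3.38% (3.19 to 3.59) in CRPR2. After thinning the shares were 0.416% and 1.76%, against 7.30% and 3.58% of NE tumor cells and 0.358% and 1.11% of fibroblasts. The gene was thus not particular to the gated cells. Whether endothelial cells themselves responded to interferon was not tested. Over all gated cells *Rsad2* had 105 and 436 CPM, a log2 ratio of 2.05 (1.92 to 2.18), beside 1.83 in fibroblasts.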
